A study of Bos taurus with 6 samples.

Results

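The transcripts of the lysosomal proton pump, the cathepsins and the LAMPs were measured in bovine blastocysts, the embryo stage with an outer epithelium, an inner cell mass and a fluid-filled cavity. The genes were taken by their symbols, namely ATP6V0 and ATP6V1 for the pump, ATP6AP1 and ATP6AP2 with ATP6AP1L for its accessory proteins, CTS followed by 1 letter for the cathepsins, and LAMP followed by a number. This gave 41 of the 36075 genes in the deposited table. The MT-treated blastocysts came from slaughterhouse oocytes matured for 22 h with 1e-07 mol/L melatonin (MT), and the control blastocysts came from oocytes matured in the same medium without MT. The methods name MT in the maturation medium and not in the media for fertilization and embryo culture. Each group had 3 libraries, each from a pool of 3 blastocysts and, according to the methods, from 3 separate in vitro production runs. Values are TPM, a gene's share of all transcripts of its library after correction for gene length and scaling to a fixed total, so levels of different genes can be compared. TPM keep no read counts, and sequencing depth was not used here.

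The vacuolar ATPase pumps protons into lysosomes, endosomes and secretory vesicles. Its cytosolic V1 sector splits ATP and turns a rotor, and its membrane V0 sector carries protons across the membrane. The acid interior activates the cathepsins, a set of proteases that break down proteins delivered by endocytosis and autophagy. LAMP proteins are heavily glycosylated and line the inner face of the lysosomal membrane. Several pump subunits exist as paralogs, 1 broadly used and others known from epithelia such as the kidney, and early ruminant embryos take up protein through the outer epithelium, the trophectoderm.

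Differences were fitted on log2(TPM + 1) with limma, and a gene was called at an adjusted p-value under 0.05 (Benjamini-Hochberg over the 11953 genes that reached 1 TPM in 3 or more libraries). A log2 fold change is MT-treated minus control on that scale, given with its standard error (SE). The libraries differed in more than these genes. Between 8854 and 8953 genes were above 0 in the control libraries and between 14372 and 14408 in the MT-treated libraries (exact two-sided permutation test, p = 0.1, the smallest that 3 against 3 allow), and 4037 of the tested genes (33.8%) were listed at 0 in every control library. Of the trophectoderm markers, KRT8 and KRT18 were abundant in all libraries, but CDX2 and ELF5 were listed at 0 in every control library, as were NANOG and LIN28A of the inner cell mass. TFAP2A of the trophectoderm went the other way, with 31.5, 38.9 and 37.8 TPM in control and 0.46, 0.46 and 0.55 TPM with MT, and SALL4 and DPPA4 of the inner cell mass were also lower with MT. Whether a listed 0 stands for an absent transcript cannot be read from TPM.

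Of the 41 genes, 32 passed the filter and were tested, and the other 9 were listed at 0 TPM in all 6 libraries. These 9 were the pump paralogs ATP6V1G2 and ATP6V0E2, the accessory gene ATP6AP1L, the cathepsins CTSK, CTSO, CTSS and CTSW, and LAMP3 and LAMP5. CTSK is the collagen-degrading protease of osteoclasts, CTSS serves antigen presentation, CTSW belongs to cytotoxic lymphocytes, and LAMP3 and LAMP5 are known from dendritic cells and neurons. All 32 tested genes differed between the groups, 16 higher and 16 lower in MT-treated blastocysts. Among all tested genes, 61.6% were higher and 34.1% lower. The filter fixed the direction of some genes. Of the members, 3 (ATP6V1B1, ATP6V1E2 and CTSF) were under 1 TPM in every control library and passed only through the MT-treated libraries, as did 5082 of all 11953 tested genes, while 661 tested genes and no member passed only through the control libraries. Quantile normalization, which makes the distribution of values alike in all libraries, left 5550 genes higher and 5311 lower, with 14 and 16 of the members. A near-even split over all genes is largely built into that method. It also gives genes tied at 0 in a library the same value, taken from the middle of their ranks. Where many genes are tied, as in control, that value can lie above the one given to a scarce gene in an MT-treated library. A rescaling that centres each library on the median of its shared genes shifts every gene by 0.48 on the log2 scale. The split of the members was then 21 higher and 9 lower, against 8412 higher and 3038 lower of all 11953 tested genes. No gene had overlapping groups, as was so for 96.1% of all tested genes. The spread between replicates was small, with a median coefficient of variation over the members of 1.46% in control and 1.91% in MT-treated blastocysts.

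The sizes of the differences are given here as a description without a test. A difference of at least 2-fold was found for 6 higher genes, ATP6V1B1, ATP6V1C2, ATP6V1E2, ATP6V0A1, CTSD and CTSF, against 51.0% of all tested genes. Of these, ATP6V1B1, ATP6V1E2 and CTSF could only be higher, and quantile normalization turned ATP6V1C2, ATP6V1E2 and CTSF downward and left ATP6V0A1 under 2-fold. The reversed genes were at 0 or scarce in control, where their sign after quantile normalization depends on how values tied at 0 are ranked. It therefore does not decide their direction. Another 3 genes, ATP6V1G3, ATP6AP2 and CTSZ, were lower by as much, against 19.6%. Where only genes above 0 in all 6 libraries were fitted, 6 of 29 members (20.7%) differed by at least 2-fold, against 49.6% of 6925 genes. Among the members this followed level. A 2-fold difference was found for 2 of 17 with a control mean of at least 100 TPM, 2 of 10 at 10 to 100 TPM and 5 of 5 under 10 TPM. The median size of the log2 fold change, whatever its sign, was 0.63 over the 32 members and 1.98 over all tested genes. The members were mostly abundant, 27 of them with at least 20 TPM in all libraries. The part of level in this gap was not tested. It was 0.58 and 0.99 over genes above 0 in all libraries, and 0.51 and 1.09 after quantile normalization. The signed median was 0.0068 over the members and 1.12 over all tested genes. The gap was not seen over genes above 0 in all libraries, with -0.18 and -0.19. After quantile normalization the medians were -0.054 and 0.042. That method brings the median over all genes near 0 by construction, so it does not test the gap.

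**Figure D1:**
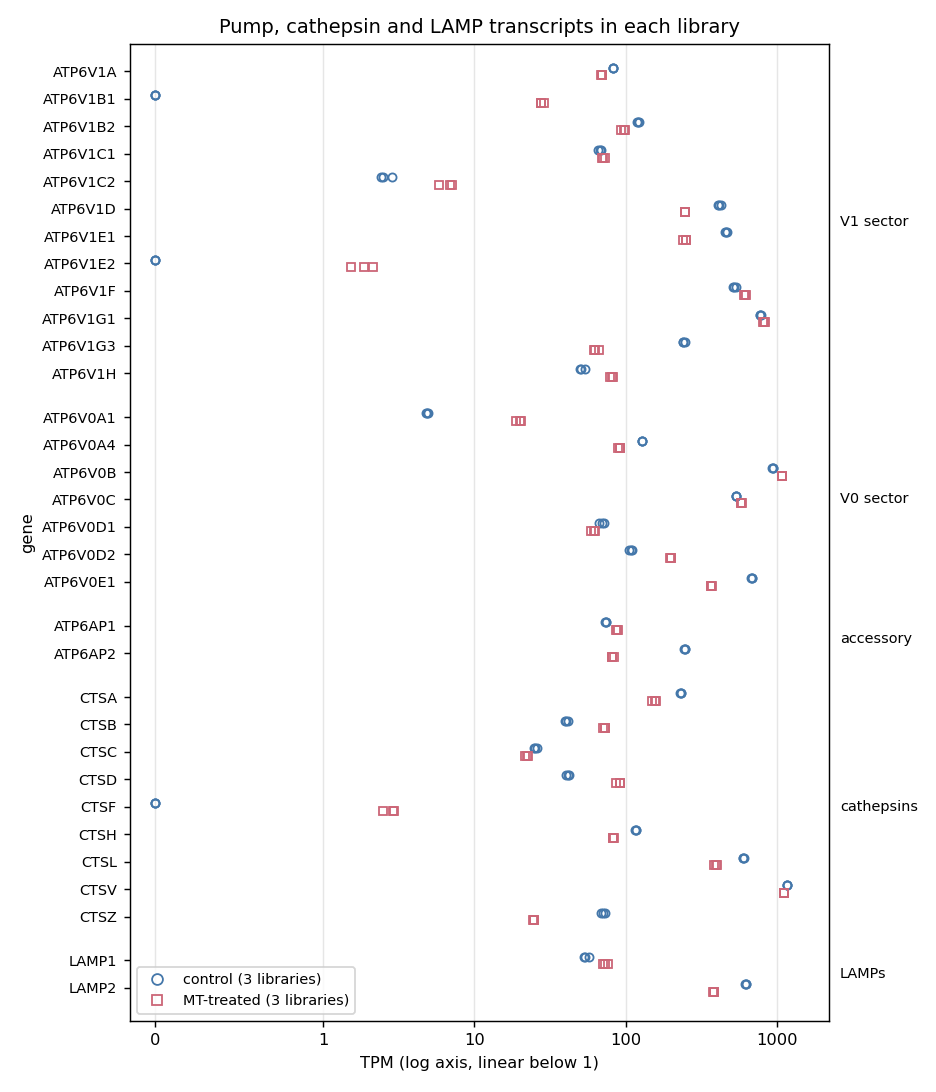
TPM of the 32 tested genes in each of the 3 control (circles) and 3 MT-treated (squares) libraries, on a log axis that is linear below 1 TPM. Replicates lie close together, and ATP6V1B1, ATP6V1E2 and CTSF sit at 0 in every control library.

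In the V1 sector, 12 of 13 genes were tested, 7 of them higher and 5 lower. Subunits A and B form the ring that binds ATP. ATP6V1A, the catalytic subunit, had 81.7, 82.8 and 82.5 TPM in control and 69.9, 69.8 and 68.8 TPM with MT. ATP6V1B2, the broadly used B subunit, had 122, 119 and 120.0 TPM in control and 98.1, 97.4 and 93.0 TPM in MT-treated blastocysts. ATP6V1A and ATP6V1B2 were lower, with log2 fold changes of -0.24 and -0.32, although median centring turned both upward and neither was called after quantile normalization (0.032 and -0.031). ATP6V1B1, the paralog of ATP6V1B2 known from the acid-secreting cells of the kidney, was at 0 in each control library and at 27.7, 27.7 and 28.8 TPM after MT treatment. Its direction was fixed by the filter, so no p is given, and no fold is given because the control value is 0.

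Subunits D and F form the central rotor stalk, and the data separated them. ATP6V1D fell from 412, 426 and 405 TPM to 246, 246 and 245 TPM, whereas ATP6V1F rose from 521, 510.04 and 530.5 TPM to 617, 604 and 621 TPM. The fall was 1.69-fold and the rise 1.18-fold on the TPM scale, and no library of 1 group reached the other. Subunits E and G form the outer stalks that hold the ring still. ATP6V1E1 fell from 461, 452 and 465 TPM to 248, 240.2 and 249 TPM, a log2 fold change of -0.90. Its paralog ATP6V1E2, known from testis, was at 0 in each control library and at 1.86, 2.14 and 1.52 TPM after MT treatment, close to the level required for testing. Quantile normalization gave it a negative log2 fold change, a sign that reflects how values tied at 0 in control are ranked.

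ATP6V1G1, the broadly used G subunit, was the most abundant transcript of the V1 sector. It had 771, 777 and 765 TPM in control and 821, 829 and 808 TPM in MT-treated blastocysts, a rise of only 1.06-fold. ATP6V1G3, a paralog known from kidney, showed the largest fall of all members. It had 244, 238 and 239 TPM in control and 62.1, 62.6 and 66.6 TPM with MT, 3.77-fold lower, with a log2 fold change of -1.90 (SE 0.032, adjusted p = 9.85e-09 by limma). The fall was present in all 3 libraries and held under every alternative tried.

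Subunit C joins the outer stalks to the membrane sector and leaves when the pump comes apart, and subunit H stops free V1 from splitting ATP. ATP6V1C1 had 68.4, 67.9 and 65.1 TPM in control and 72.7, 69.8 and 70.3 TPM in MT-treated blastocysts. The difference, a log2 fold change of 0.079 (95% interval 0.007 to 0.15, adjusted p = 0.0383 by limma), was the least certain of all members, and leaving out control replicate 2 or 3 or MT-treated replicate 1 or 3 ended the call, with values of 0.088, 0.057, 0.061 and 0.085. ATP6V1C2, a scarcer paralog, had 2.48, 2.43 and 2.86 TPM in control and 7.16, 5.86 and 6.85 TPM in MT-treated blastocysts, 2.56-fold higher (SE of the log2 fold change 0.083, adjusted p = 2.06e-05 by limma), though quantile normalization reversed its sign. ATP6V1H rose from 53.4, 50.2 and 50.0 TPM to 80.9, 81.7 and 79.2 TPM, a log2 fold change of 0.64.

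In the V0 sector, 7 of 8 genes were tested, 4 of them higher and 3 lower. The proton-binding ring is built from subunit c, encoded by ATP6V0C, and a longer relative encoded by ATP6V0B. ATP6V0B, the most abundant transcript of the whole pump, had 932, 922 and 931 TPM in control and 1073, 1071 and 1080.05 TPM in MT-treated blastocysts. ATP6V0C had 530.4, 532 and 533 TPM in control and 572, 588 and 578 TPM in MT-treated blastocysts. Both ring genes were thus higher, by 1.16-fold and 1.09-fold, and kept that direction under each scaling. The small membrane subunit e moved the other way. ATP6V0E1 fell from 678, 673 and 677 TPM to 369.85, 365 and 365 TPM, the largest fall of the sector, with a log2 fold change of -0.88 (SE 0.011, adjusted p = 3.33e-09 by limma).

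Subunit a forms the path for protons and decides to which membrane the pump is sent. ATP6V0A4, the form known from the apical membrane of kidney cells, was the most abundant of the forms measured in both groups. It had 127, 128 and 128 TPM in control and 91.7, 92.1 and 88.4 TPM with MT, a log2 fold change of -0.49 that was no longer called after median centring. ATP6V0A1, the form best known from neurons, rose from 4.96, 4.84 and 4.80 TPM to 19.9, 18.7 and 20.4 TPM, 4.04-fold, the largest rise of the sector on deposited TPM (log2 fold change 1.82, SE 0.041, adjusted p = 4.22e-08 by limma). After quantile normalization its log2 fold change was 0.90, under 2-fold, and that of ATP6V0D2 was higher at 1.11. TCIRG1, the a3 form of lysosomes and osteoclasts, does not carry a pump symbol and had 10.7, 10.6 and 11.8 TPM in control and 14.3, 14.5 and 15.2 TPM in MT-treated blastocysts. No gene in the deposited table carried the symbol ATP6V0A2, so that form of subunit a was not measured here.

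Subunit d couples the rotor to the ring. ATP6V0D1, its broadly used form, had 71.9, 66.5 and 69.2 TPM in control and 58.7, 61.7 and 62.5 TPM in MT-treated blastocysts. ATP6V0D2, known from kidney and osteoclasts, was the more abundant form already in control, with 110.06, 108 and 105 TPM, and had 199, 196 and 197 TPM in MT-treated blastocysts. The forms went in opposite directions, with log2 fold changes of -0.18 and 0.87. The direction of ATP6V0D1 turned upward under median centring and quantile normalization, whereas that of ATP6V0D2 held under both.

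The accessory proteins help the pump assemble in the endoplasmic reticulum. ATP6AP1 rose from 73.9, 72.9 and 73.8 TPM to 88.4, 86.7 and 87.7 TPM, with a log2 fold change of 0.25 (SE 0.018, adjusted p = 1.78e-05 by limma). ATP6AP2, also known as the prorenin receptor, had 246, 246 and 241 TPM in control and 80.9, 84.2 and 80.4 TPM with MT. It was 2.98-fold lower, with a log2 fold change of -1.56 (SE 0.023, adjusted p = 6.28e-09 by limma). ATP6AP2 lay above ATP6AP1 in every control library, and in MT-treated blastocysts ATP6AP1 lay above ATP6AP2 in every library.

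**Figure D2:**
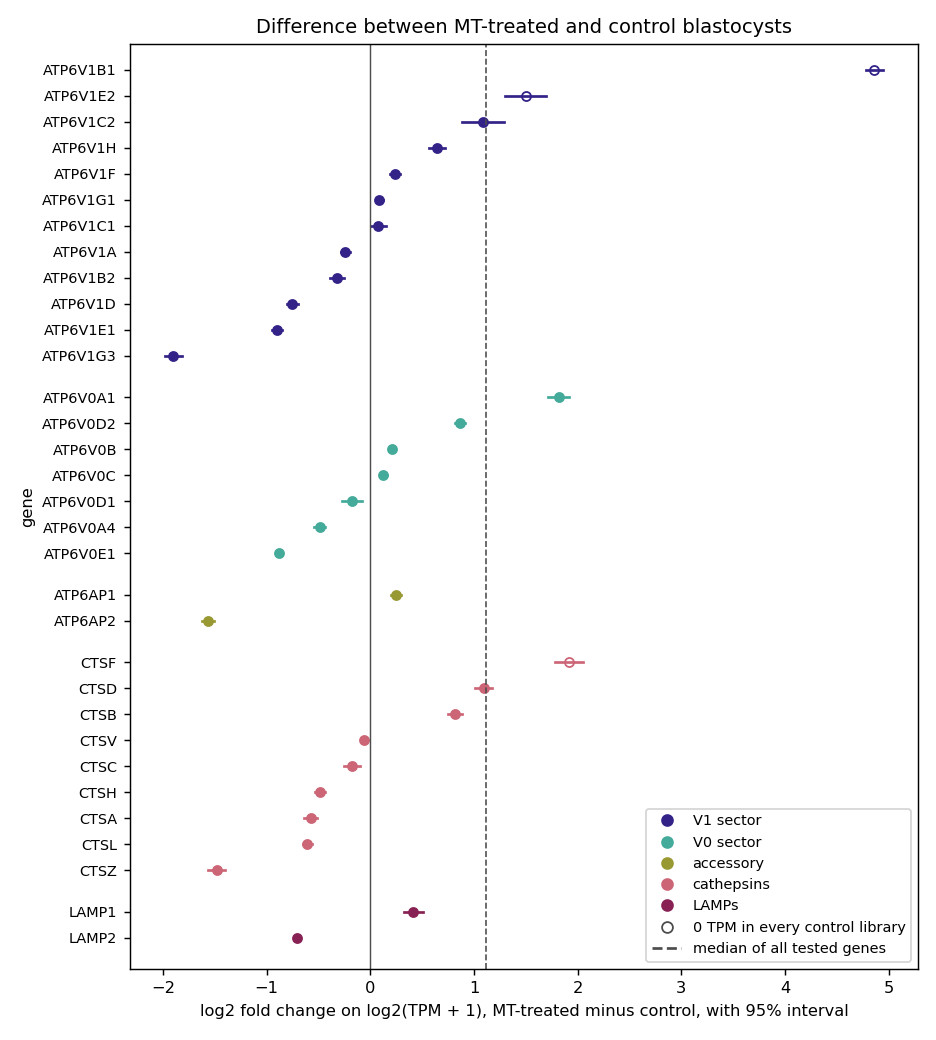
Log2 fold change (MT-treated minus control, on log2(TPM + 1)) of each tested gene with its 95% interval from limma, grouped by role. Open points mark genes listed at 0 in every control library, and the dashed line is the median of all tested genes, 1.12.

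The paralog make-up of the pump differed between the groups, given here as shares of the summed TPM of each subunit and without a test. For subunit a, ATP6V0A1 made up 3.67% ± 0.0757 (SD, n = 3) of the ATP6V0A1 and ATP6V0A4 transcripts in control and 17.8% ± 0.935 (SD, n = 3) with MT. With TCIRG1 counted in, the mean share of ATP6V0A1 was 3.39% in control and 15.7% with MT, and that of TCIRG1 was 7.69% and 11.7%. For subunit B, ATP6V1B1 made up 0% in control and 22.6% ± 0.901 (SD, n = 3) with MT, while the sum of both B genes came to 120.2 ± 1.51 and 124 ± 2.13 TPM (SD, n = 3 each). ATP6V1B1 was at 0 in control, so its share could only be higher. For subunit d, ATP6V0D2 went from 60.9% ± 0.890 to 76.4% ± 0.686 (SD, n = 3 each). For subunit G the make-up narrowed, since ATP6V1G1 went from 76.2% ± 0.309 to 92.8% ± 0.340 (SD, n = 3 each) as ATP6V1G3 fell. For subunit C, ATP6V1C2 made up 3.72% ± 0.424 in control and 8.53% ± 0.681 in MT-treated blastocysts (SD, n = 3 each) on deposited TPM, although quantile normalization gave ATP6V1C2 a negative log2 fold change (-1.38) and ATP6V1C1 a positive one (0.36). For subunit E the share of ATP6V1E2, also at 0 in control, stayed under 1% in every library.

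**Figure D3:**
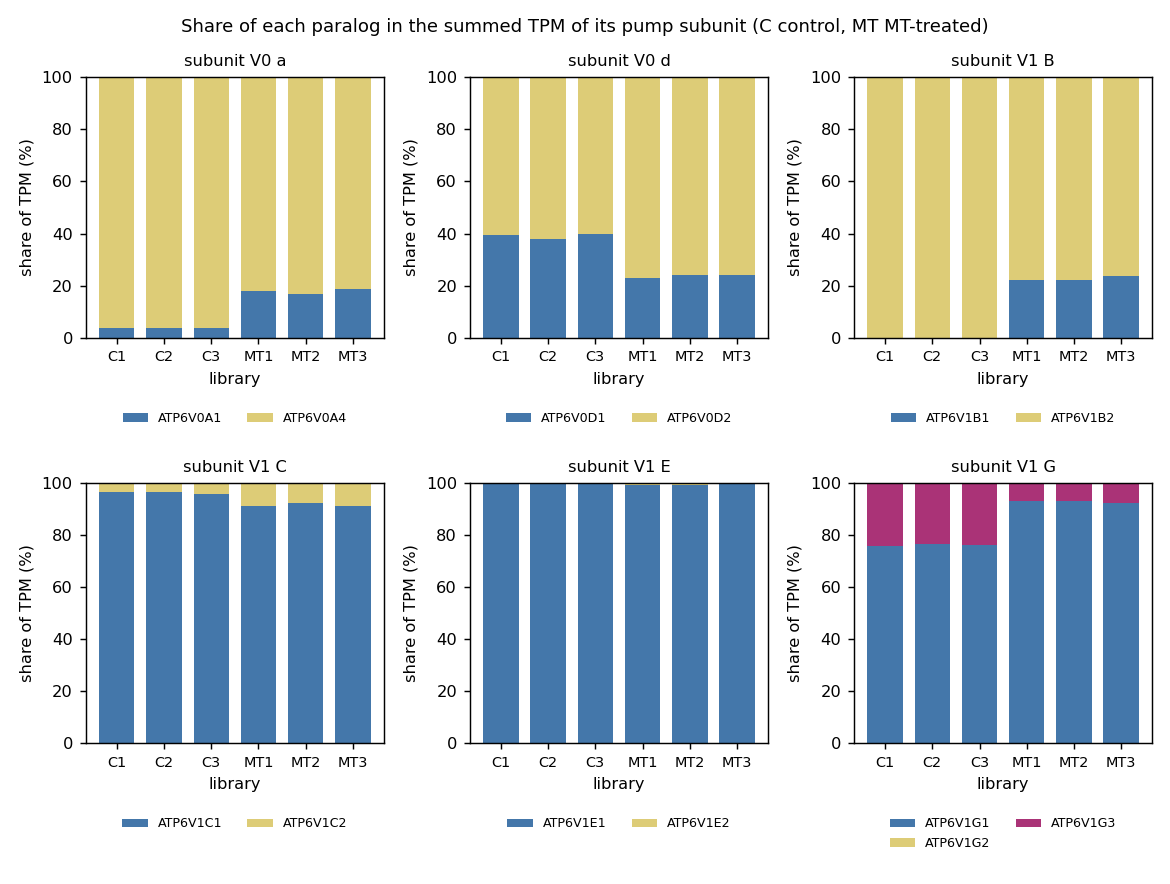
Share (%) of each paralog in the summed TPM of its pump subunit, 1 stacked bar per library. Shown are the 6 subunits with more than 1 detected paralog by pump symbol, so subunit a leaves out TCIRG1. ATP6V0A1 and ATP6V1B1 take visible shares in the MT-treated libraries, and ATP6V1G3 shrinks there.

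Of 13 cathepsins, 9 were tested, 3 of them higher and 6 lower in MT-treated blastocysts. CTSV, a cysteine endopeptidase close in sequence to CTSL, was the most abundant cathepsin in both groups. It had 1160.3, 1160.4 and 1158 TPM in control and 1109, 1109 and 1106 TPM in MT-treated blastocysts. That difference, a fall of 1.05-fold that median centring reversed, was the smallest among the members and was larger than a spread between replicates of 0.134% of the mean in control and 0.178% in MT-treated blastocysts. CTSL, a broadly used cysteine endopeptidase, fell from 605, 593 and 595 TPM to 398, 384 and 393 TPM. How reads that match both of these paralogs were counted is not given in the sources used here, and their part in the levels of CTSV and CTSL was not tested.

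CTSA, a serine carboxypeptidase that also protects the lysosomal galactosidase and neuraminidase, had 232, 227 and 232 TPM in control and 157, 149 and 157 TPM in MT-treated blastocysts. CTSH, an aminopeptidase, had 117, 115 and 117 TPM in control and 81.9, 82.6 and 84.0 TPM in MT-treated blastocysts. CTSC, which removes dipeptides and activates other proteases, had 25.1, 24.6 and 26.0 TPM in control and 22.5, 21.6 and 22.4 TPM in MT-treated blastocysts. All of these were lower, with log2 fold changes of -0.58, -0.48 and -0.18, but after median centring CTSH was no longer called and CTSC was higher. CTSZ, a carboxypeptidase, was the cathepsin with the largest fall. It went from 70.2, 68.2 and 73.3 TPM to 24.7, 24.9 and 24.2 TPM, 2.87-fold lower, with a log2 fold change of -1.48 (SE 0.033, adjusted p = 3.65e-08 by limma).

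The cathepsins on the higher side were the main aspartic protease of the lysosome, the best known cysteine protease, and a scarce relative. CTSD, the aspartic protease, had 40.5, 42.2 and 41.5 TPM in control and 91.1, 86.1 and 91.3 TPM in MT-treated blastocysts, 2.16-fold higher (SE of the log2 fold change 0.032, adjusted p = 1.42e-07 by limma). CTSB, which acts as an endopeptidase and removes dipeptides from the carboxyl end, had 39.4, 40.4 and 41.7 TPM in control and 72.8, 72.8 and 70.8 TPM in MT-treated blastocysts, 1.78-fold higher. The control libraries held CTSD and CTSB at levels that overlap each other, whereas in the MT-treated libraries CTSD was the higher in all 3. CTSF was at 0 in each control library and at 2.93, 2.49 and 2.92 TPM after MT treatment. Its direction was likewise fixed by the filter. Quantile normalization turned its log2 fold change negative, which again reflects how values tied at 0 in control are ranked.

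These changes reordered the cathepsins below the leading genes. In control the order by mean TPM was CTSV, CTSL, CTSA, CTSH, CTSZ, CTSD, CTSB and CTSC, of which only CTSD and CTSB overlapped. In MT-treated blastocysts it was CTSV, CTSL, CTSA, CTSD, CTSH, CTSB, CTSZ, CTSC and CTSF, with no overlap between neighbours. CTSV made up 50.8% ± 0.230 of all cathepsin TPM in control and 56.9% ± 0.446 in MT-treated blastocysts (SD, n = 3 each). The share of CTSL went from 26.2% ± 0.198 to 20.1% ± 0.213, and that of CTSD from 1.82% ± 0.0445 to 4.59% ± 0.121 (SD, n = 3 each). In either group CTSV and CTSL together held over 3 in 4 cathepsin transcripts.

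LAMP1 and LAMP2 are the main glycoproteins of the lysosomal membrane, and LAMP2 also has a form that takes up proteins for chaperone-mediated autophagy. LAMP1 rose from 53.2, 53.9 and 56.8 TPM to 72.3, 71.1 and 75.9 TPM, a log2 fold change of 0.41 (SE 0.037, adjusted p = 5.14e-05 by limma). LAMP2 was the more abundant in every library and fell from 620.5, 614 and 620.45 TPM to 379.94, 381 and 378 TPM, a log2 fold change of -0.70 (SE 0.011, adjusted p = 6.99e-09 by limma). LAMP1 held 8.12% ± 0.250 of the sum of both without MT and 16.2% ± 0.514 with MT (SD, n = 3 each). The table holds 1 value a gene, so forms of LAMP2 made by splicing were not resolved.

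Summed over the genes of each role, deposited TPM were lower in the MT-treated libraries for every role, most for the accessory proteins and LAMPs and least for the V0 sector, but the direction for the V1 sector, the V0 sector and the cathepsins depended on the scaling. When MT-treated TPM were multiplied by 1.39, the median shift of the shared genes, the MT-treated sums were 3257 to 3281 for V1, 3324 to 3336 for V0 and 2694 to 2732 for the cathepsins, above control, while the accessory and LAMP sums stayed below control. This rescaling was chosen after seeing the data. The V1 sum was 2724 to 2737 TPM in control and 2336 to 2354 TPM in MT-treated libraries. The V0 sum was 2434 to 2455 TPM in control and 2384 to 2393 TPM in MT-treated libraries, so the ratio of the V1 sum to the V0 sum came to 1.12 ± 0.00306 without MT and 0.980 ± 0.00606 with MT (SD, n = 3 each). The cathepsin sum was 2271 to 2289 TPM in control and 1932 to 1960.1 TPM in MT-treated libraries. The LAMP sum was 668 to 677 TPM in control and 452 to 454 TPM in MT-treated libraries. All 41 genes together took 0.901% ± 0.00261 of the listed TPM in control and 0.7996% ± 0.0015 in MT-treated blastocysts (SD, n = 3 each). TPM are shares of a library, and MT-treated libraries listed many more genes, so a lower sum is a lower share. In these bulk libraries fewer cells of a type and less RNA per cell cannot be told apart.

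**Figure D4:**
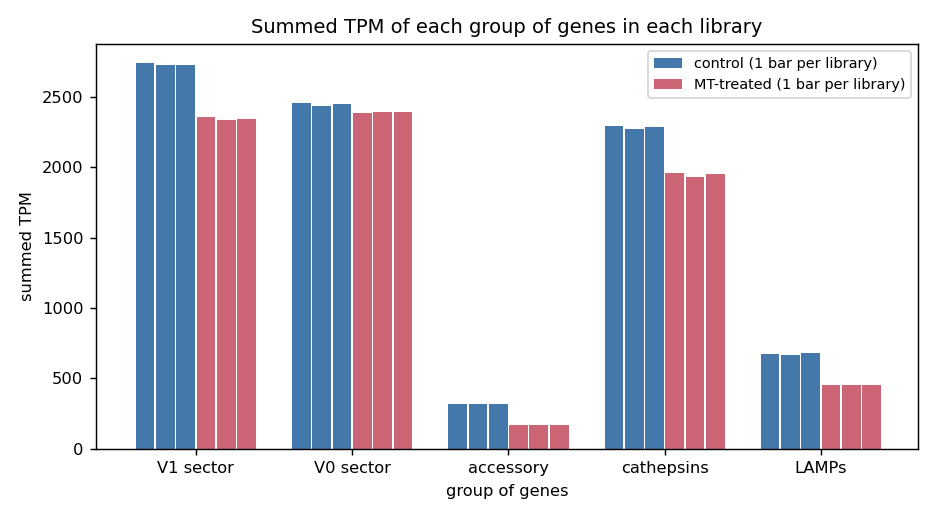
Summed TPM of the V1 sector, the V0 sector, the accessory proteins, the cathepsins and the LAMPs, 1 bar per library from 0. The MT-treated bars of deposited TPM are lower for every role, by the smallest margin for the V0 sector, and those of V1, V0 and the cathepsins would lie above control after multiplication by 1.39.

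Other lysosomal genes were taken from lists written from general knowledge. Of 106 tested genes in these lists, 62 were higher and 37 lower with a median log2 fold change of 0.52, against 61.6% and 34.1% of all tested genes. Of the 106, 32 were under 1 TPM in every control library and could only be higher. The counts of each list stand against the same 61.6% and 34.1%. Of the lists, 32 of the 129 genes found in the table were listed at 0 in every control library and above 0 in at least 1 MT-treated library. Genes for assembly and regulation of the pump numbered 8 higher and 2 lower of 10, with a median log2 fold change of 1.38, but 3 of the 10 were under 1 TPM in every control library and could only be higher. DMXL1, which belongs to the complex that joins V1 to V0, had 0, 0.03 and 0.03 TPM in control and 33.0, 30.8 and 32.2 TPM with MT. Like DMXL1, its relative DMXL2 was under 1 TPM in every control library and could only be higher. WDR7 and ROGDI of the same complex, named after their values were seen, were at or above 1 TPM in control. WDR7 rose from 1.79, 1.69 and 1.69 TPM to 9.05, 9.02 and 8.89 TPM. ROGDI rose from 31.6, 32.7 and 35.1 TPM to 134, 127 and 134 TPM. In the other direction, CCDC115 of this list fell from 101.1, 100.5 and 103.2 TPM to 30.7, 35.1 and 32.8 TPM. NCOA7, whose protein binds the pump, was the largest fall, with 84.5, 84.2 and 91.6 TPM in control and 0.78, 2.05 and 0.09 TPM in MT-treated blastocysts.

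Among soluble acid hydrolases, 15 of 28 tested genes were higher and 11 lower, with a median log2 fold change of 0.11, and 9 of them could only be higher. GLA, which removes galactose from glycolipids, had 0.02, 0 and 0 TPM in control and 47.7, 47.6 and 47.5 TPM in MT-treated blastocysts. HGSNAT was placed in this list for its part in heparan sulfate breakdown, although it is a membrane acetyltransferase and neither soluble nor a hydrolase. It was the gene of the list with the largest fall, from 18.3, 18.2 and 18.1 TPM to 2.57, 2.51 and 2.31 TPM. Among hydrolase activators and cystatins, 4 of 8 were higher and 3 lower, with a median log2 fold change of 0.65, and 3 of them could only be higher. CST3, which encodes cystatin C, a secreted inhibitor of cysteine cathepsins, fell from 423, 421 and 431 TPM to 103, 99.3 and 107 TPM, 4.13-fold lower. SUMF2, a relative of the sulfatase activator, was at 0 in each control library and at 12.9, 14.2 and 13.3 TPM after MT treatment. CST3 thus fell further than any of the cysteine cathepsins tested here, of which CTSZ was the nearest at 2.87-fold. The other cystatins of the list did not share this fall. The more abundant CSTB entry, with means of 1709 TPM in control and 1373 TPM with MT, was 1.245-fold lower. The other CSTB entry was not called, and CST6 was at 0 in every control library and could only be higher.

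Among other lysosomal membrane proteins, 12 of 24 were higher and 10 lower, with a median log2 fold change of 0.085, and 4 of them could only be higher. SLC38A9, an amino acid sensor, was at 0 in each control library and at 41.2, 43.0 and 43.0 TPM after MT treatment. SLC36A1, a proton-coupled amino acid exporter, fell from 72.7, 78.5 and 83.3 TPM to 11.2, 10.2 and 10.7 TPM. Among genes that sort proteins to the lysosome, 11 of 17 were higher and 5 lower, with a median log2 fold change of 0.74, and 6 of them could only be higher. GNPTG, a subunit of the enzyme that makes the mannose 6-phosphate tag, was at 0 in each control library and at 41.2, 38.8 and 42.1 TPM after MT treatment. AP3B1, part of a sorting adaptor, fell from 80.3, 82.3 and 77.5 TPM to 24.8, 25.6 and 24.3 TPM.

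In the TFEB family and the lysosomal docking machinery of mTORC1, 12 of 19 genes were higher and 6 lower, with a median log2 fold change of 0.58, and 7 of them could only be higher. TFEB, a transcription factor known to switch on lysosomal genes, pump and cathepsins included, had 0.37, 0.39 and 0.28 TPM in control and 106, 82.3 and 102 TPM in MT-treated blastocysts. TFEB is among the 7 genes of this list whose direction the filter fixed. BORCS6, part of the complex that places lysosomes in the cell, fell from 15.01, 13.7 and 15.1 TPM to 6.96, 6.34 and 6.95 TPM.

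**Figure D5:**
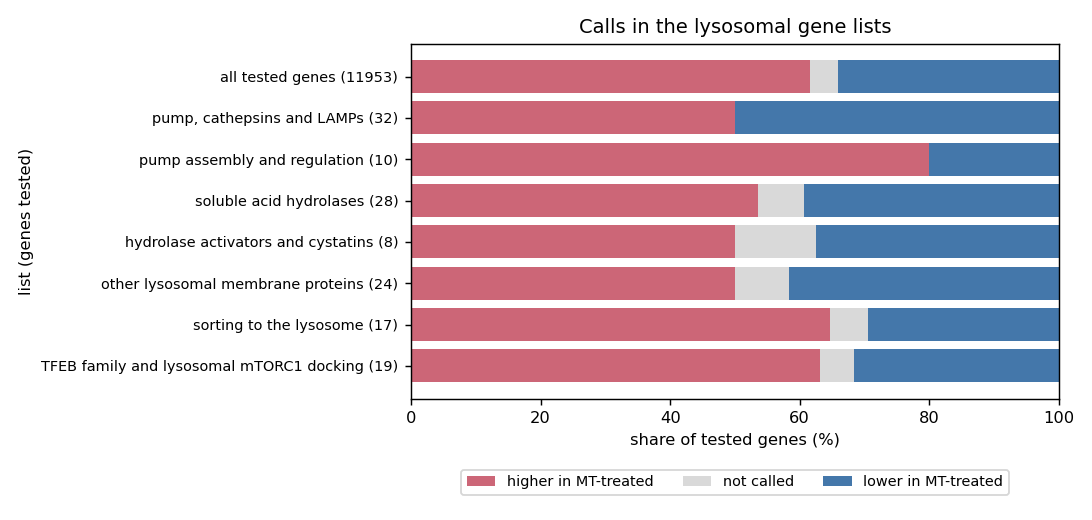
Share (%) of the tested genes called higher, not called or called lower in MT-treated blastocysts by limma, for all tested genes, for the 32 members and for the 6 lists of other lysosomal genes. The members split evenly, and the list of pump assembly and regulation has the largest higher share, with 3 of its 10 genes tested only through the MT-treated libraries.

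Markers of cell types were measured beside these genes. Of 10 trophectoderm markers tested, 8 were higher and 2 lower, against 61.6% and 34.1% of all tested genes, and their summed level was 11480 to 11820 TPM in control and 10740 to 11100 TPM in MT-treated libraries. Most of that sum was KRT8, with means of 8695 TPM in control and 6905 TPM with MT, and KRT18, with 2766 and 3654 TPM. Of 7 inner cell mass markers, 4 were higher and 2 lower, with sums of 289.7 to 293 TPM and 345 to 349.8 TPM. The 6 tested hypoblast markers were higher, but 4 of them (GATA6, PDGFRA, HNF4A and LAMA1) were under 1 TPM in every control library and could only be higher, and the list had sums of 223 to 226 TPM and 567 to 571 TPM. Most of these sums was FN1, with means of 206 TPM in control and 461 TPM with MT. Of the other markers counted as higher, 2 of the trophectoderm, 3 of the inner cell mass and both of the macrophage and blood list passed in the same way. GATA4 was at 0 in all libraries, and SOX17 was at 0 in control and at most 0.2 TPM in the MT-treated libraries. Of 9 macrophage and blood markers, AIF1 and HBB were listed at 0 in control and had 5.93, 6.87 and 6.16 TPM and 23.1, 24.8 and 23.9 TPM with MT, while PTPRC, CD68, CD14, CSF1R, TYROBP and ITGAM were at 0 in all 6 libraries. Of 8 cumulus and granulosa markers in the table, 6 were at 0 in all libraries, and FSHR had 17.2, 19.2 and 18.1 TPM in control and 17.1, 15.9 and 15.03 TPM in MT-treated blastocysts. The part of the hypoblast markers and of AIF1 and HBB in the differences of the pump, cathepsin and LAMP genes was not tested.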

How the data were processed

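RNA was sequenced from 6 pools of bovine blastocysts, 3 control and 3 MT-treated. Per the submitters' processing notes, reads were checked with FastQC 0.11.9, aligned with STAR 2.7.9a and counted with featureCounts of Subread 1.6.3. The labels and the methods name different assembly versions and different library kits, so neither is stated here. The authors deposited 1 table of length-corrected shares of transcripts (TPM) for all 6 libraries, and raw counts were not used here, so the DESeq2 test named in the notes was not run, and the sequencing depth of the libraries was not used here. The deposited TPM columns were matched to samples by name. The values were turned into log2(TPM + 1) and fitted with limma 3.58.1 in R 4.3.3 (lmFit, eBayes with a mean-variance trend) over genes with at least 1 TPM in at least 3 libraries, with Benjamini-Hochberg adjustment over all tested genes and a threshold of 0.05. P-values measure the spread between the 3 libraries of each group. That these libraries come from separate production runs is taken from the methods and cannot be read from TPM. Sums and shares were computed with Python 3.11.15, pandas 2.3.3 and numpy 2.4.6, and the fit was tested on simulated data. The members were chosen by symbol, and members and lists were chosen with earlier results of these data known. Standard errors and adjusted p-values were printed for the members with the highest and lowest log2 fold change of each role (taking the next highest, ATP6V1C2 and CTSD, where the filter fixed the direction of the highest, a change made after the values were seen) and, beyond that rule, the interval of ATP6V1C1. From each list of other genes the highest and lowest called gene was named. TCIRG1, DMXL2, WDR7, ROGDI, CCDC115, CSTB and CST6 were named beyond that rule, and the alternatives are not given for them. Alternatives tried were quantile normalization, a minimum of 5 TPM, no filter, a pseudocount of 0.1, median centring, rescaling to a common total, no trend, a replicate block, genes above 0 in all 6 libraries, and each library left out. No sequence was printed and no promoter was searched.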

Additional observations from a re-analysis of the deposited data

How the results depend on the processing

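Over the 32 members and 12 other named genes, every called direction held with a pseudocount of 0.1, without a filter, with rescaling to a common total and with genes above 0 in all 6 libraries, the last for the 36 genes it could test. The same held for a minimum of 5 TPM, for 42 genes. Median centring reversed ATP6V0D1 (0.30), ATP6V1A (0.24), ATP6V1B2 (0.16), CTSC (0.30) and CTSV (0.41), and left ATP6V0A4 and CTSH uncalled. Quantile normalization reversed ATP6V0D1 (0.12), ATP6V1A (0.032, not called), ATP6V1C2 (-1.38), ATP6V1E2 (-0.36) and CTSF (-0.15), all as log2 fold changes, and left ATP6V1B2 uncalled. ATP6V1E2 and CTSF were at 0 in every control library, so their reversal reflects the ranking of tied values. ATP6V1C1 was also not called without the trend. Members lower numbered 9 of 32 under median centring, against 3038 of all 11953 tested genes. Among genes above 0 in all 6 libraries, members higher by at least 2-fold numbered 3 of 29, against 1539 of 6925 genes. That setting tests fewer genes, and it left 34 other lysosomal genes higher, against 2814 of the 6925 genes. How many of the other lysosomal genes it could test was not counted. The median log2 fold change of the members, 0.0068, had no stable sign. It was -0.18 over genes above 0 in all libraries, -0.12 with a minimum of 5 TPM, -0.054 after quantile normalization, 0.044 after rescaling, 0.49 after median centring, and -0.0048 to 0.012 with 1 library left out, where it was negative without control replicate 3 (-0.0048) and without MT-treated replicate 1 (-0.0023). Among all tested genes the median was 1.12, and 0.042 after quantile normalization, which brings it near 0 by construction. With MT-treated TPM multiplied by the median shift, a rescaling added after seeing the data, the log2 ratio of summed TPM reversed for V1 (0.26), V0 (0.45) and the cathepsins (0.25). Same-numbered libraries did not deviate together (correlations of -0.0115, -0.000679 and 0.0588), and a replicate block gave 16 higher and 16 lower members and changed no call. Where not stated, the cause was not tested. TPM do not give read counts, so no limit was set on what a listed 0 could hide.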
